A study of Mus musculus with 2 samples.

Results

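The genes Bcl2, Bcl2l1 and Mcl1 encode BCL-2, BCL-XL and MCL-1, the proteins that keep T cells alive by holding back the mitochondrial pathway of cell death. Binding of the transcription factors STAT3 and STAT5 was read in 3 stretches of the mouse genome (build mm9), 1 around each gene: chr1:108400000-108640000 for Bcl2, chr2:152570000-152690000 for Bcl2l1 and chr3:95430000-95500000 for Mcl1. These windows were set by position on the chromosome, with no read count in the rule. The genes themselves were chosen with earlier results of these data known. Together the windows held 68 of the 86150 sites called for STAT3 or STAT5 in the series. Of these, 38 lay in the Bcl2 window, 17 in the Bcl2l1 window and 13 in the Mcl1 window.

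The reads come from chromatin immunoprecipitation sequencing (ChIP-seq), in which DNA fragments bound by a protein are pulled down with an antibody and sequenced. Wild-type C57BL/6J CD4 T cells, sorted as naive cells from spleen and lymph nodes, were grown into T helper 17 (Th17) cells over 3 days with antibodies to CD3 and CD28, 20 ng/ml IL-6 and 2 ng/ml TGF-beta, and antibodies to both IL-4 and IL-2 are listed for the culture. As the amount of IL-2 antibody is given in IU/ml, by which the cytokine is usually dosed, the labels leave it unclear whether the culture had IL-2 added or neutralised. One library was made with an antibody to STAT3 after 30 minutes of IL-6 at 40 ng/ml, and the other with mixed STAT5A and STAT5B antibodies after 30 minutes of IL-2 at 200 IU/ml. Antibody and cytokine differed together, so their shares in any difference cannot be told apart. There was 1 library of each kind and no control library was analysed here, so no p-value was computed between them, every comparison is of these libraries, and each interval covers counting error only. Places that give many reads with any antibody cannot be told apart from bound sites here. The STAT3 library had 20784388 reads on nuclear chromosomes and the STAT5 library 17963766, and levels are given per 1000000 of these reads (RPM).

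STAT3 and STAT5 are latent factors in the cytoplasm until kinases at a cytokine receptor phosphorylate them. They then pair and enter the nucleus, where they bind palindromes of the form TTCNNNGAA. IL-6 acts mainly through STAT3, and IL-2 mainly through STAT5. BCL-2, BCL-XL and MCL-1 share the task of binding the death effectors BAX and BAK and the BH3-only proteins that trigger them. In T cells, Bcl2 and Mcl1 are known targets of survival cytokines such as IL-2 and IL-7, and Bcl2l1 is a known STAT5 target in blood cells. MCL-1 is the short-lived member of the group.

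The sequence at hand for these genes was the promoter window of RefSeq on GRCm38.p6, 250 bases before to 50 after each transcription start, with 1 window for Bcl2, 3 for Bcl2l1 and 1 for Mcl1. One window of each gene is shown 5′ to 3′ along the gene, so that its base composition and STAT half-sites can be read. None of the 5 windows held TTCNNNGAA, a pattern that reads the same on both strands and that 8.30% of the 32851 promoter windows in the table held. The longer pattern TTCNNNNGAA, tried after these sequences had been seen, was in 6.95% of all windows and in 1 of the 5, a Bcl2l1 window in which it began at position -4 from the start site and is shown in capitals.
Bcl2 (chr1:106714241-106714540, minus strand, GRCm38.p6): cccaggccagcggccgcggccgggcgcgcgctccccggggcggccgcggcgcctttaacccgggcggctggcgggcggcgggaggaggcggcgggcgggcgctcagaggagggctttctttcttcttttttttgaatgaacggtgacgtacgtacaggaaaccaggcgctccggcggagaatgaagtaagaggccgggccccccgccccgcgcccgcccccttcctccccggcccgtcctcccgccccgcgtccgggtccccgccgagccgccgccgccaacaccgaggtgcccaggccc
Bcl2l1 (chr2:152828440-152828739, minus strand, GRCm38.p6): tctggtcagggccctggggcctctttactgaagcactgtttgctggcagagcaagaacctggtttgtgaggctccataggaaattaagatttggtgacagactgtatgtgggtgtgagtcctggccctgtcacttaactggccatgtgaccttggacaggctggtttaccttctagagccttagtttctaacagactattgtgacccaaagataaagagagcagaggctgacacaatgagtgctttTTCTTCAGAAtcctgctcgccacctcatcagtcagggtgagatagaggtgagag
Mcl1 (chr3:95658471-95658770, plus strand, GRCm38.p6): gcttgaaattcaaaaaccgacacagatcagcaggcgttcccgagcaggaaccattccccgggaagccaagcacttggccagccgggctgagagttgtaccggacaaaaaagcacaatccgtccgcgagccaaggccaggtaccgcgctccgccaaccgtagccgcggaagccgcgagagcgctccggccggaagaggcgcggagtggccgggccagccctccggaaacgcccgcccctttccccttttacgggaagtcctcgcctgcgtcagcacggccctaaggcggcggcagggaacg
The Bcl2 window is 76.0% G or C, the Mcl1 window 65.7% and the Bcl2l1 window shown 49.3%, with 55.7% and 52.3% in the Bcl2l1 windows not shown. These positions are on another build than the reads and were not converted, so which site, if any, covers a promoter, an exon or an intron was not determined. By the gene order of GRCm38.p6 the nearest protein-coding neighbours are Phlpp1 and Kdsr for Bcl2, Cox4i2 and Tpx2 for Bcl2l1, and Ensa and Adamtsl4 for Mcl1. A site near the edge of a window may lie nearer to one of these genes than to the survival gene, and no site was assigned to a target.

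All 3 windows were rich in reads of both antibodies, and STAT5 outweighed STAT3 in each. The Bcl2 window held 30.6 STAT3 and 70.9 STAT5 reads per kb, the Bcl2l1 window 34.5 and 64.2, and the Mcl1 window 76.0 and 98.5. Over the length of the genome in which reads were placed there were 8.80 STAT3 and 7.61 STAT5 reads per kb. The STAT3/STAT5 ratio of RPM over all reads of the window was 0.373 for Bcl2 (exact 95% interval 0.363 to 0.383), 0.465 for Bcl2l1 (0.447 to 0.483) and 0.666 for Mcl1 (0.643 to 0.691), where 1 is the genome-wide ratio by construction. Over the genome, 39.0% of STAT5 reads but 24.1% of STAT3 reads lay in sites, which gave a ratio of 0.619 over all reads in sites. The ratio over reads in sites was 0.266 for Bcl2, 0.363 for Bcl2l1 and 0.673 for Mcl1, so for Mcl1 it was not below that of the genome. The surplus of STAT5 reads was not only in the sites. Between the sites the ratio was 0.499 (0.481 to 0.518) in the Bcl2 window, 0.603 (0.571 to 0.636) in the Bcl2l1 window and 0.660 (0.628 to 0.694) in the Mcl1 window, against 1.24 between all sites of the genome. The reads between sites include places that stand out by eye but were not called, because a site had to exceed its own surroundings.

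A site is a region called in either library, with overlapping STAT3 and STAT5 regions merged, and each was counted in its 200 bp window with the highest sum of STAT3 and STAT5 RPM. No position and strand carries more than 1 deposited read, so a 200 bp window cannot exceed 400 reads. Site density was high in the 3 windows. When the genome was cut into stretches of 240 kb, 52 of the 10680 stretches with a read held 38 sites or more, and the median stretch held 4. Of 21292 stretches of 120 kb, 645 held 17 sites or more, and of 36463 stretches of 70 kb, 412 held 13 or more. For reads the rank depended on the antibody at Bcl2 and Bcl2l1. As many reads as in the Bcl2 window were found in 180 stretches for STAT3 and in 7 for STAT5, and as many as in the Bcl2l1 window in 324 for STAT3 and in 62 for STAT5. For Mcl1 these numbers were 27 for STAT3 and 32 for STAT5. Stretches were cut at fixed steps from the start of each chromosome and may overlap the windows themselves. Of the 68 sites, 47 (69.1%) were called in both libraries, against 47.7% of all sites. Only the STAT3 library called 3 (4.41%), against 18.2% of all sites, and only the STAT5 library called 18 (26.5%), against 34.1%. All 3 STAT3-only sites lay in the Bcl2 window, and had 32, 83 and 35 STAT3 reads against 30, 129 and 32 STAT5 reads, with a lower RPM for STAT3 than for STAT5 at each.

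STAT5 RPM exceeded STAT3 RPM at 37 of 38 Bcl2 sites, 14 of 17 Bcl2l1 sites and 10 of 13 Mcl1 sites. It did so at 52148 of all 86150 sites too, so a majority is usual in these libraries. The excess was more than 2-fold, beyond counting error, at many sites of Bcl2 and Bcl2l1 and at 1 of Mcl1, a contrast between genes that was not tested. A site was called higher with 1 antibody when the exact 95% interval of its STAT3/STAT5 ratio lay wholly beyond 2-fold, that is above 2 or below 0.5. By this rule STAT5 was higher at 20 of 38 Bcl2 sites (52.6%), at 10 of 17 Bcl2l1 sites (58.8%) and at 1 of 13 Mcl1 sites (7.69%), where the share of all 86150 sites is 26.5%. STAT3 was higher at 0 of the 68 sites, where the share of all sites is 2.75%. The STAT5-higher calls comprised 14 of the 18 STAT5-only sites and 17 of the 47 sites called with both antibodies (36.2%), against 60.4% of all STAT5-only sites and 12.4% of all sites called with both. At a lower bar, the interval lay wholly below 1 at 33 Bcl2, 14 Bcl2l1 and 7 Mcl1 sites, together 79.4% of the 68, against 42.4% of all sites. For Mcl1 alone that share was 53.8%. It lay wholly above 1 at 1 Bcl2l1 and 1 Mcl1 site, together 2.94%, against 15.8% of all sites. The median ratio was 0.365 over Bcl2 sites (quartiles 0.174 and 0.530), 0.299 over Bcl2l1 sites (0.106 and 0.563) and 0.789 over Mcl1 sites (0.520 and 0.957). Over all sites it was 0.775 (0.223 and 1.38). In stretches of the same length, 20 or more STAT5-higher sites were found in 2 of 10680 for Bcl2, and 10 or more in 44 of 21292 for Bcl2l1. For Mcl1, 12063 of 36463 stretches held 1 or more.

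**Figure D1:**
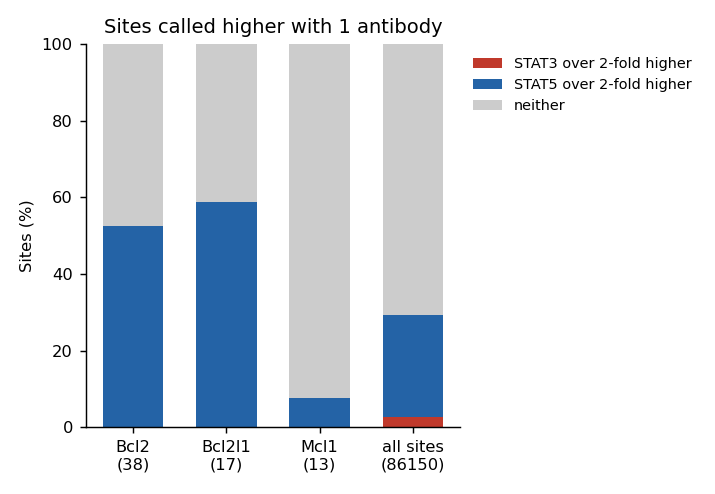
Share of sites, in percent on the vertical axis, called higher with STAT3, higher with STAT5 or neither, for the Bcl2 (38 sites), Bcl2l1 (17) and Mcl1 (13) windows and for all 86150 sites. STAT5-higher sites make up 52.6% and 58.8% of Bcl2 and Bcl2l1 sites, 7.69% of Mcl1 sites and 26.5% of all sites.

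Sites with few reads are rarely called, and the sites of the 3 genes were tall. Their median was 46 STAT3 and 135.5 STAT5 reads, against 26 and 31 over all sites. Among sites with 100 or more reads of both libraries together, a limit set after the data were seen, STAT5 was higher at 15 of 22 Bcl2 sites, 10 of 14 Bcl2l1 sites and 1 of 10 Mcl1 sites, against 33.2% of the 27690 such sites in the genome. The Mcl1 share also depends on the scaling: when each library was scaled by its reads in 10 kb bins that met no region, which puts STAT3 at 0.723 times its RPM, 4 of 13 Mcl1 sites were higher with STAT5, against 33.2% of all sites under the same scaling. When every local maximum of 1 RPM or more was counted in place of called sites, STAT5 was higher at 41 of 91 Bcl2, 15 of 40 Bcl2l1 and 7 of 41 Mcl1 maxima. Maxima were not counted over the genome, so these counts cannot be set against a share of all maxima.

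**Figure D2:**
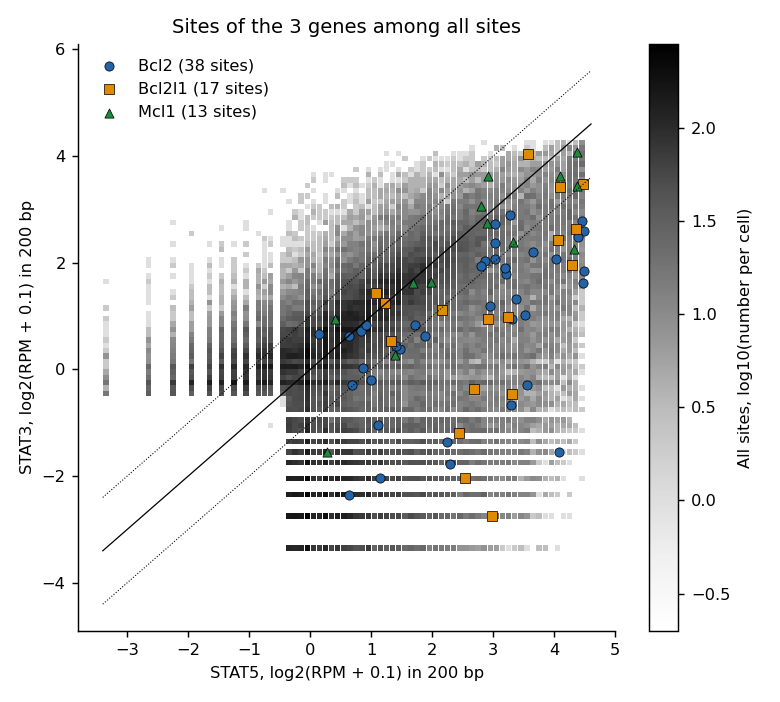
STAT3 level (vertical) and STAT5 level (horizontal) of each site in 200 bp, both as log2(RPM + 0.1). Grey cells count all 86150 sites, coloured marks are the sites of the 3 genes, the solid line marks equal RPM and dotted lines a 2-fold difference on this scale. Most Bcl2 and Bcl2l1 marks lie below the solid line, and Mcl1 marks gather closer to it.

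The tallest STAT5 sites of the 3 genes were in the Bcl2 window. STAT3 reads ran from 2 to 153 per Bcl2 site with a median of 36.5, and STAT5 reads from 18 to 400 with a median of 140.5. The tallest STAT5 sites of Bcl2 were site 18 (chr1:108503401-108504000; sites are numbered by position within each window), with 73 STAT3 and 400 STAT5 reads, site 19 (chr1:108508951-108509750), with 124 and 400, and site 17 (chr1:108497351-108497850), with 62 and 396. At sites 18 and 19 every position and strand was taken in the STAT5 library, which was so at 17 of all 86150 sites. Their ratios were 0.158 (0.121 to 0.203) at site 18, 0.268 (0.217 to 0.329) at site 19 and 0.135 (0.102 to 0.177) at site 17. As STAT5 counts were at the ceiling there and STAT3 counts were far from it, these ratios are compressed towards 1. With site 20 (114 STAT3 and 373 STAT5 reads) they form a run of 4 sites whose centres lie within 16200 bp.

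The tall STAT5 sites of Bcl2 lay to one side of the window. All 10 Bcl2 sites with over 200 STAT5 reads were among sites 1 to 20, and the highest of sites 21 to 38 had 185. STAT5 was higher at 14 of sites 1 to 20 and at 6 of the 18 others; as the split after site 20 was set from the STAT5 heights, this is a description. The tallest STAT3 sites of Bcl2 were spread more widely, and were site 26 (chr1:108543851-108544350) with 153 STAT3 and 171 STAT5 reads, site 2 (chr1:108412151-108412700) with 141 and 391, and site 21 (chr1:108517101-108517500) with 135 and 145. None of the Bcl2 sites exceeded 200 STAT3 reads, as 2.13% of all sites did. That height was exceeded by 3 Bcl2l1 sites (17.6%) and 4 Mcl1 sites (30.8%). The ratio was 0.773 (0.618 to 0.967) at site 26 and 0.805 (0.632 to 1.02) at site 21, both called with neither antibody as higher, and 0.312 (0.255 to 0.379) at site 2.

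**Figure D3:**
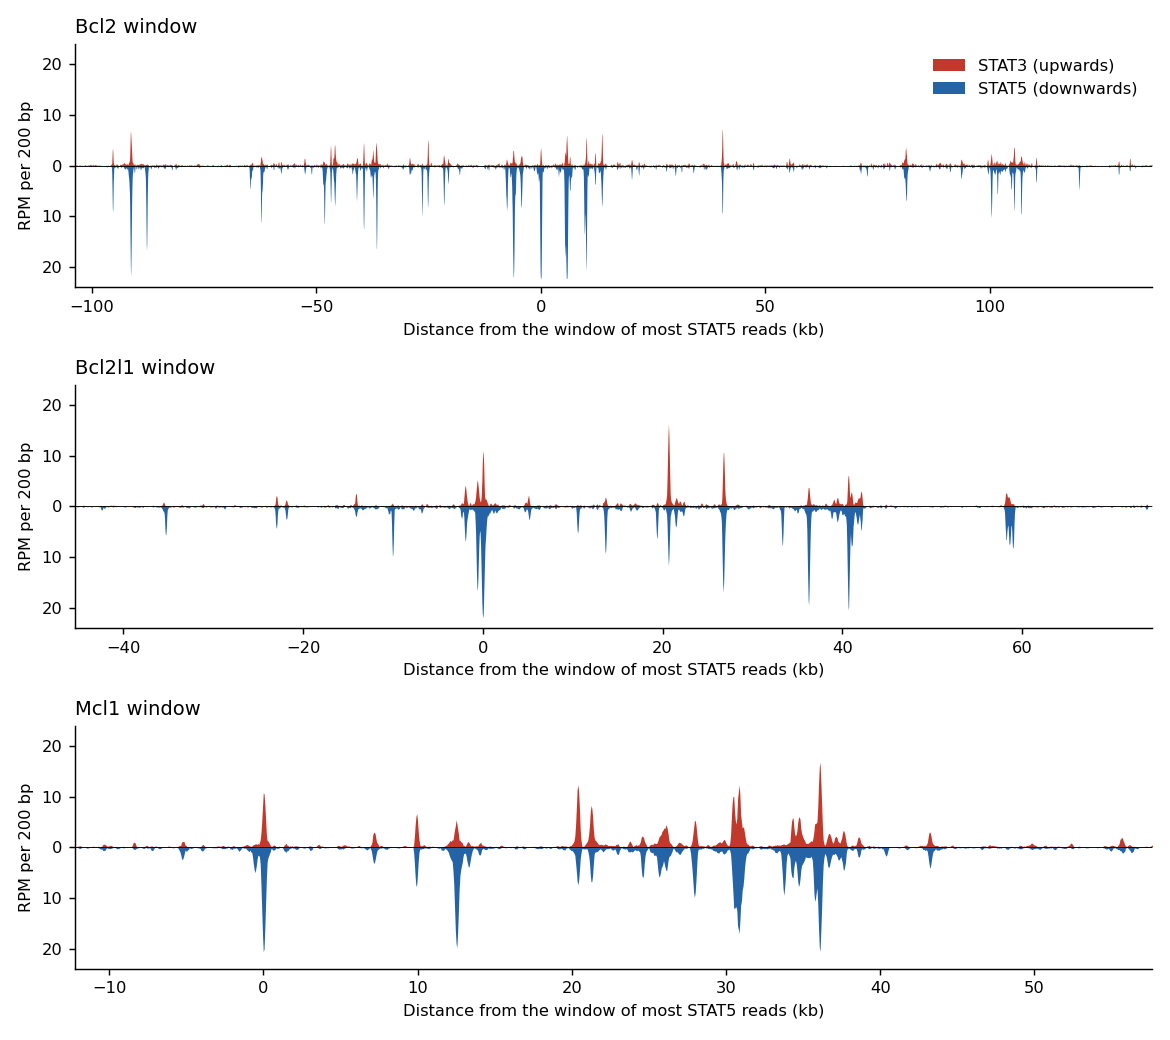
STAT3 (upwards, red) and STAT5 (downwards, blue) level in RPM per 200 bp window moved by 50 bp, along the Bcl2, Bcl2l1 and Mcl1 windows. The horizontal axis is the distance in kb from the window of most STAT5 reads. The 10 Bcl2 sites with over 200 STAT5 reads stand in the left part of that window, with STAT3 lower than STAT5 at each, whereas the tallest Mcl1 peaks are tall in both directions.

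The lowest ratio among Bcl2 sites was at site 3 (chr1:108415701-108416200), with 5 STAT3 and 301 STAT5 reads and a ratio of 0.0144 (0.00463 to 0.0339). The mean between the sites of this window of STAT3 was 4.0 reads per 200 bp, so site 3 was 1.25 times that level with STAT3 and 43.5 times the between-site level with STAT5. At 4 further STAT5-higher Bcl2 sites, STAT3 reads were likewise at most 2 times the level between sites, with 2 to 6 STAT3 and 26 to 86 STAT5 reads. These are sites 4, 25, 29 and 36, and their ratios were 0.0625 (0.0223 to 0.142), 0.0665 (0.00765 to 0.266), 0.0682 (0.0135 to 0.215) and 0.0402 (0.0107 to 0.107). Such sites were not counted over the genome, so whether they are more common here is not known. The highest ratio was at site 38 (chr1:108634651-108635050), the last of the window, with 31 STAT3 and 18 STAT5 reads and an interval of 0.807 to 2.83 around 1.49. It was the single Bcl2 site with a ratio above 1, and 4 more Bcl2 intervals included 1.

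Over all 38 Bcl2 sites, the called and uncalled ones differed more in STAT5 than in STAT3 reads. The 20 STAT5-higher Bcl2 sites had 2 to 141 STAT3 reads (median 42.5) and 26 to 400 STAT5 reads (median 194). The 18 other Bcl2 sites had 15 to 153 STAT3 reads (median 33.5) and 18 to 171 STAT5 reads (median 52.5); as the call uses these counts, this is a description. A further group stood near the right end of the window, where site 32 (chr1:108603801-108604200) had 50 STAT3 and 185 STAT5 reads, site 33 (chr1:108608901-108609250) had 76 and 162, and site 34 (chr1:108610451-108610800) had 38 and 176. Their ratios were 0.234 (0.167 to 0.321) at site 32, 0.405 (0.305 to 0.536) at site 33 and 0.187 (0.128 to 0.266) at site 34. Site 33 was just outside the limit of 0.5 with the upper end of its interval, and site 1 (0.367, 0.273 to 0.488) was just inside it.

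**Figure D4:**
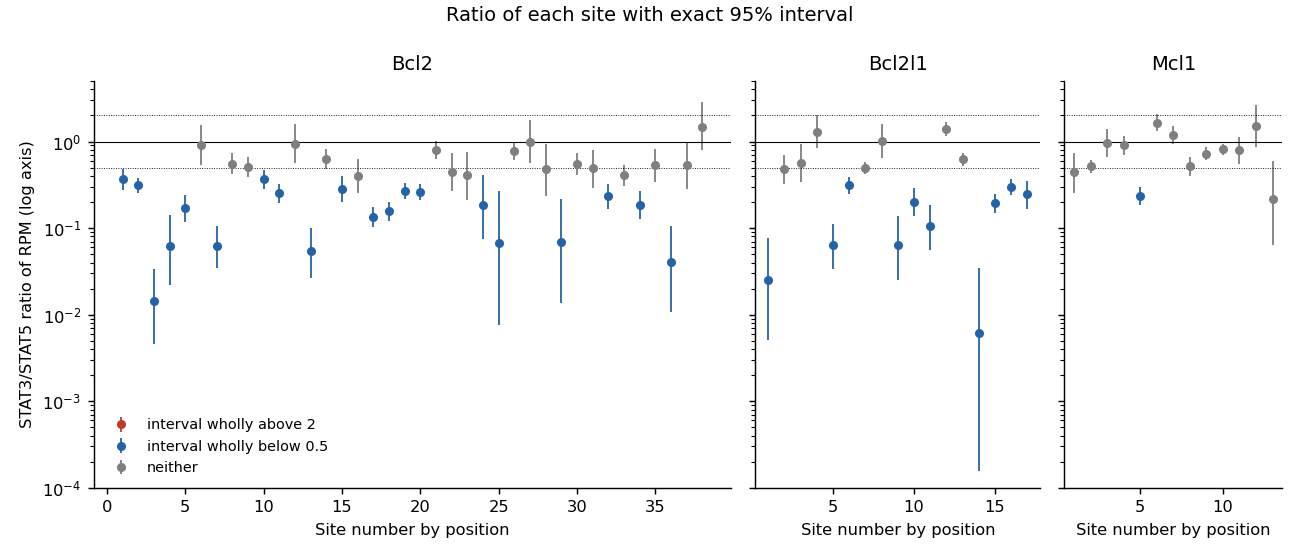
STAT3/STAT5 ratio of RPM (log axis) at each site of Bcl2, Bcl2l1 and Mcl1, in order of position, with its exact 95% interval. Dotted lines mark 0.5 and 2; 20 Bcl2, 10 Bcl2l1 and 1 Mcl1 intervals lie wholly below 0.5 (blue) and 0 lie above 2 (red).

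Ratios at Bcl2l1 ran from 0.00617 to 1.39, and both antibodies had tall sites there. Its site with most STAT3 reads, site 12 (chr2:152635801-152636300), had 338 STAT3 and 210 STAT5 reads and thus a ratio of 1.39 (1.17 to 1.66). It was also the Bcl2l1 site with the highest ratio, and its STAT3 level was at the 99.8th percentile of all sites. Site 7 (chr2:152615201-152615600) was tall with both, with 228 STAT3 and 396 STAT5 reads. Its ratio of 0.498 (0.421 to 0.587) lay at the limit, and was compressed towards 1 as its STAT5 count was close to the ceiling of 400. A correction for positions already taken gave 0.158 (0.134 to 0.187), by which site 7 was called higher with STAT5. That interval leaves out the error of the correction itself, which is large so close to the ceiling. Site 7 was also called higher with STAT5 when counted in 400 bp, with 283 and 663 reads and a ratio of 0.369 (0.320 to 0.425). Site 13 (chr2:152641901-152642400), the third by STAT3, had 219 STAT3 and 304 STAT5 reads and a ratio of 0.623 (0.521 to 0.743).

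The other tall STAT5 sites of Bcl2l1 had less STAT3. Site 16 (chr2:152655851-152656300) had 127 STAT3 and 367 STAT5 reads and a ratio of 0.299 (0.242 to 0.367). Site 15 (chr2:152651401-152651850) had 79 and 351, a ratio of 0.195 (0.150 to 0.249). Site 6 (chr2:152614651-152614900), with its centre 600 bp to the left of site 7, had 109 and 299 reads and a ratio of 0.315 (0.251 to 0.394). The 10 STAT5-higher Bcl2l1 sites had 1 to 127 STAT3 reads (median 26) and 95 to 367 STAT5 reads (median 153.5), and the 7 others 28 to 338 (median 54) and 36 to 396 (median 78). The lowest ratio of all 68 sites was at Bcl2l1 site 14 (chr2:152648551-152648900), with 1 STAT3 and 140 STAT5 reads and a ratio of 0.00617 (0.000155 to 0.0350). At 3 of the 10 STAT5-higher Bcl2l1 sites, sites 1, 9 and 14, STAT3 reads were at most 2 times the between-site mean of 4.06, with 3, 7 and 1 STAT3 reads against 102, 95 and 140 STAT5 reads. The share of such sites over the genome was not counted. Site 1 was called with both antibodies although its top window had 3 STAT3 reads, since the STAT3 window with most reads lay 250 bp to the left of the STAT5 one and had 18. With each library counted at its own top window the ratio of site 1 was 0.153 (0.0869 to 0.253), still called higher with STAT5.

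Ratios at Mcl1 sites lay nearer to 1, from 0.216 to 1.66. Its sites had a median of 107 STAT3 and 132 STAT5 reads, so its STAT3 median was above those of Bcl2 (36.5) and Bcl2l1 (43), while the STAT5 medians of the 3 genes lay between 132 and 140.5. The tallest STAT3 site of Mcl1, site 10 (chr3:95478151-95478500), was also among its tallest STAT5 sites, with 348 STAT3 and 369 STAT5 reads and a ratio of 0.815 (0.702 to 0.946). Both levels were above the 99th percentile of all sites. Site 9 (chr3:95472551-95473300) had 256 STAT3 and 306 STAT5 reads and a ratio of 0.723 (0.610 to 0.856), and site 2 (chr3:95442001-95442500) had 223 and 371, a ratio of 0.520 (0.438 to 0.615). These windows were more than 50% filled with reads of both libraries, which also draws a ratio towards 1. The correction for positions already taken gave 0.689 at site 10, 0.610 at site 9 and 0.269 at site 2, and then site 2 was called higher with STAT5. It also raised the ratio to 2.17 (1.75 to 2.70) at Mcl1 site 6 and to 2.16 (1.82 to 2.58) at Bcl2l1 site 12. Neither of these was then called higher with STAT3.

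The single STAT5-higher site of Mcl1 was site 5 (chr3:95454551-95455050), with 97 STAT3 and 356 STAT5 reads and a ratio of 0.235 (0.186 to 0.296). Site 6 (chr3:95462451-95462850) had the highest ratio by the bound nearest to 1, with 255 STAT3 and 133 STAT5 reads and a ratio of 1.66 (1.34 to 2.06). Next to it, site 7 (chr3:95463351-95463700) had 171 and 123 reads and a ratio of 1.20 (0.947 to 1.53). Sites 3 and 4 were lower but near balance, with 62 STAT3 and 56 STAT5 reads (ratio 0.957, 0.656 to 1.40) and 138 and 132 reads (0.904, 0.707 to 1.16). Site 8 (chr3:95470051-95470350) had 107 and 178 reads, a ratio of 0.520 (0.405 to 0.664), and was called as a region with STAT5 only. At the right edge of the window, sites 12 and 13 had few reads, 38 STAT3 and 22 STAT5 at site 12 and 5 and 20 at site 13, with ratios of 1.49 (0.861 to 2.65) and 0.216 (0.0634 to 0.593). Intervals included 1 at 5 of the 13 Mcl1 sites, which at these counts does not show that the antibodies were equal there. Across the sites of a gene, STAT3 and STAT5 reads had a Spearman's rho of 0.824 over 13 Mcl1 sites, 0.534 over 17 Bcl2l1 sites and 0.556 over 38 Bcl2 sites, against 0.401 over all sites. These are descriptions across sites that share the same libraries, and sites were called on these same reads.

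Taken over the 3 windows together, neighbouring sites differed in their ratio about as often as in the rest of the genome. Of the 64 pairs of neighbouring sites in the 3 windows whose centres were at most 20 kb apart, 34 (53.1%) had intervals that did not overlap, close to the 48.0% among all such pairs in the genome. In 13 of the 64 pairs (20.3%) the ratios also differed more than 10-fold, against 21.4% of all such pairs. These were 7 pairs of Bcl2, 6 of Bcl2l1 and 0 of Mcl1. Bcl2l1 sites 11 and 12, with centres 1300 bp apart, had 14 and 338 STAT3 reads but 114 and 210 STAT5 reads, and their ratios of 0.106 (0.0562 to 0.185) and 1.39 differed 13.1-fold. Bcl2 sites 13 and 14 were also 1300 bp apart, with 11 and 105 STAT3 reads but 174 and 145 STAT5 reads, and their ratios of 0.0546 (0.0268 to 0.1002) and 0.626 (0.482 to 0.810) differed 11.5-fold. In both of these pairs, picked from the 13, the sites differed far more in STAT3 than in STAT5 reads. Other pairs differed more in STAT5 reads. Bcl2 sites 12 and 13 had 35 and 11 STAT3 but 32 and 174 STAT5 reads, and their ratios differed 17.3-fold. Bcl2 sites 6 and 7 had 32 and 15 STAT3 but 30 and 208 STAT5 reads, and differed 14.8-fold. How many of the 13 pairs went each way was not counted. Bcl2 sites 2 and 3, 3550 bp apart, had 141 and 5 STAT3 reads and 391 and 301 STAT5 reads. In the Mcl1 window the contrast was smaller, with ratios of 0.235 and 1.66 at sites 5 and 6, which lay 7850 bp apart and differed 7.04-fold. When the sites of each gene were ordered by ratio, every site's interval overlapped that of the next in all 3 genes, so the order of next neighbours is not resolved at this depth.

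**Figure D5:**
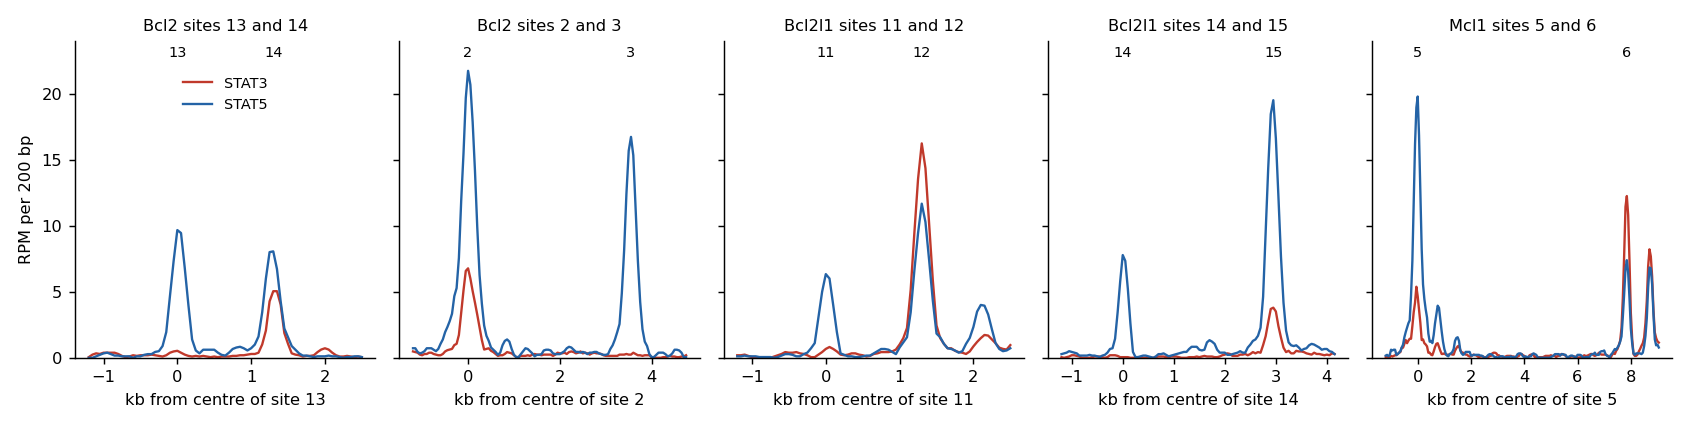
STAT3 (red) and STAT5 (blue) level in RPM per 200 bp window around 5 pairs of neighbouring sites, against the distance in kb from the centre of the first site of the pair; numbers in the panels mark the sites. At Bcl2l1 sites 11 and 12 STAT3 had 14 and 338 reads, and STAT5 had 114 and 210.

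Summits were compared at the 34 sites that were called with both antibodies and were 400 bp or wider, a choice made after the data were seen, since narrow sites leave the summits little room to differ. The 200 bp windows with most STAT3 and most STAT5 reads were at most 50 bp apart at 31 of these 34 sites (91.2%), against 82.2% of all such sites. They were over 100 bp apart at 2 sites, both of Bcl2l1: site 1, described above, and site 17 (chr2:152673451-152674550), a region of 1100 bp in which the STAT3 summit lay 750 bp to the left of the STAT5 summit. Reads came from both strands, with 38.9 to 58.3% of STAT5 reads on the plus strand at each of the 68 sites, and 36.7 to 64.0% of STAT3 reads at those with 20 or more. The median site was 400 bp wide, and neighbouring centres lay a median of 4350 bp apart in the Bcl2 window, 5275 bp in the Bcl2l1 window and 5250 bp in the Mcl1 window.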

How the data were processed

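Each deposited file lists aligned reads, 1 line per read, on mm9 per the submitters' processing notes; for the aligner and filters, the sources used here give no name. Every read is 25 nt long, and no nuclear position and strand holds more than 1 read. The deposited score is 0 in every line and was not used.

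Read 5′ ends were shifted 50 bp in the 3′ direction and counted in 200 bp windows, step 50, on the 19 autosomes, X and Y. Windows were called that held 5 reads or more, exceeded 4-fold or more each of 3 means (genome-wide, 5 kb, 10 kb), and had a 1-sided Poisson p, adjusted by Benjamini-Hochberg, at or below 1e-05. Called windows within 100 bp were joined (56921 STAT3 and 70559 STAT5 regions, after leaving out those with over 80% of summit reads on 1 strand). Regions sharing 1 bp or more were merged into sites, and a site belongs to a gene when the centre of its 200 bp window lies in that gene's window.

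The ratio of RPM has an exact conditional (Clopper-Pearson) 95% interval. Given in full are, per window, the 3 sites with most STAT3 reads, the 3 with most STAT5 reads and those with the highest and lowest ratio by the interval bound nearest to 1; other sites named were chosen after their values were seen. The correction for taken positions was -L ln(1 - k/L), where k is the read count and L the 400 combinations of position and strand. Its interval is the uncorrected one scaled by the same factor, so it is too narrow for counts near the ceiling. The genes and settings were chosen with earlier results of these data known. Other genes of the BCL-2 family need an mm9 annotation and were not analysed here. The tools were scipy 1.17.1, matplotlib 3.10.9, pandas 2.3.3 and numpy 2.4.6 under Python 3.11.15.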

Additional observations from a re-analysis of the deposited data

How the results depend on the processing

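The alternatives of leaving out sites with over 200 of 400 positions taken and of keeping those with 100 or more reads of both libraries together were added once the data had been seen. The number of sites higher with STAT3 was 0 in all 3 windows under each alternative in which it was counted, which leaves out the genome-wide mean alone, the adjusted p of 1e-10 and the keeping of 1-strand regions. With intervals beyond 1.5-fold, Mcl1 had 4 STAT5-higher sites, and 5.96% of all sites were higher with STAT3 and 32.4% with STAT5. Scaling by bins without a region gave Mcl1 4 STAT5-higher sites, all sites a STAT3-higher share of 1.03% and a STAT5-higher share of 33.2%, and ratios over the windows of 0.269 for Bcl2, 0.336 for Bcl2l1 and 0.482 for Mcl1. With the main scaling by RPM, the ratios over sites only were 0.266 for Bcl2 and 0.363 for Bcl2l1, and without the sites 0.499 and 0.603. The correction for taken positions gave Mcl1 2 STAT5-higher sites. Under that correction the STAT5-higher share over the genome was 28.2%, and the STAT3-higher share was 3.61%. A minimum fold of 8 left 13 Bcl2, 9 Bcl2l1 and 6 Mcl1 sites, with 7 Bcl2, 5 Bcl2l1 and 1 Mcl1 sites and 34.3% of all sites higher with STAT5. The genome-wide mean alone gave 88, 29 and 27 sites, and local maxima of 1 RPM or more numbered 91, 40 and 41. Of these maxima, 41 Bcl2, 15 Bcl2l1 and 7 Mcl1 were higher with STAT5, and the share over the genome was not counted. Without sites over 200 of 400 positions taken, STAT5 was higher at 10 of 28 Bcl2, 7 of 11 Bcl2l1 and 0 of 8 Mcl1 sites, against 23.9% of all sites left. With 100 or more reads together, 22 Bcl2 sites were left, and STAT3 was higher at 4.18% of all such sites. Thresholds and widths act on the counts by construction; beyond that the cause was not tested. No paired analysis was possible because there was 1 library per antibody, and for the same reason no replicate could be left out. Depth and the ceiling of 400 reads per window limit ratios at the lowest and the tallest sites.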
